A study of Homo sapiens with 4 samples.

Results

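The genes described here encode 10 secreted proteins of the extracellular matrix, namely the basement membrane glycoproteins NID1 and NID2, the microfibril proteins FBN1, MFAP2 and MFAP5, the adhesive glycoprotein FN1, the matricellular proteins TNC, THBS1 and SPARC, and the small proteoglycan DCN. They were chosen by name, as a functional group, and are 10 of the 63856 genes in the count table. The choice was made with earlier results of these data known. RNA-seq had been performed on MCF10A, a non-tumorigenic human mammary epithelial cell line, in its wild type (WT) form and after stable overexpression of HSF1, the main transcription factor of the heat shock response. There were 2 biological replicates of each variant, 4 libraries in all. The HSF1 coding sequence had been delivered with a lentivirus made from pLVX-Puro, a vector that also carries puromycin resistance (HSF1-pLVX cells). Both variants were grown in DMEM/F12 medium with horse serum, insulin, hydrocortisone, EGF and cholera toxin. The WT cells had not been transduced, and no empty-vector library was analysed here, so HSF1, the vector, the drug selection and the culture history of the lines cannot be told apart. The question addressed was how the levels of these matrix transcripts differed between HSF1-pLVX and WT cells.

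The extracellular matrix is the protein scaffold that cells secrete and adhere to. Epithelial cells rest on a basement membrane, a sheet of laminin and type IV collagen to which nidogens bind. Fibrillin microfibrils form a separate fibre network that also carries latent TGF-beta, and microfibril-associated glycoproteins bind to it. Fibronectin is assembled into fibrils through integrins. Matricellular proteins such as tenascin-C, thrombospondin-1 and SPARC act on adhesion and signalling more than on structure, and decorin binds collagen fibrils and TGF-beta. In mammary epithelium, fibronectin and tenascin-C are often studied as genes of epithelial-to-mesenchymal transition, whereas decorin is best known as a product of stromal fibroblasts.

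To show the DNA next to these genes, the 250 bases before each RefSeq transcription start (GRCh38.p14) were searched for short motifs on both strands. 8 of the 10 members had 9 such windows, and MFAP5 and DCN were not matched. The stretches printed below hold no annotated exon, are written 5′ to 3′ on the strand of the gene, and belong to the member with the largest fall (NID2) and to 3 abundant or long matrix genes (FN1, THBS1 and FBN1). Capitals mark a cAMP response element (TGACGTCA) in FN1 and the TEAD core (GGAATG) in THBS1 and FBN1. No motif searched for lies in the NID2 stretch.
FN1, chr2:215436173-215436252, minus strand: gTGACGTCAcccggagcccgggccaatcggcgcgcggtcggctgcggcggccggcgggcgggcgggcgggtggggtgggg
THBS1, chr15:39580829-39581078, plus strand: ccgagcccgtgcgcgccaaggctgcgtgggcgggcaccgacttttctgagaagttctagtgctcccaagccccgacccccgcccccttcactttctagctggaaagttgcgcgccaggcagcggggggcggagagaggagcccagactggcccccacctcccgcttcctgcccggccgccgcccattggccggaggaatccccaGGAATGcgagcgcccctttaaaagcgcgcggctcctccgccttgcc
FBN1, chr15:48644971-48645220, minus strand: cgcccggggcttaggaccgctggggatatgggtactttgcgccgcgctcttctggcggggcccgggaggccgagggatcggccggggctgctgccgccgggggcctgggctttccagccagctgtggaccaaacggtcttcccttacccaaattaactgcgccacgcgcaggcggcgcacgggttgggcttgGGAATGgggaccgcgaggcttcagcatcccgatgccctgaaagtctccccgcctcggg
NID2, chr14:52069229-52069309, minus strand: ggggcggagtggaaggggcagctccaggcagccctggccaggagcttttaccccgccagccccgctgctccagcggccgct

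HSF1 binds inverted repeats of the letters GAA, known as heat shock elements. Of such pairs only GAANNTTC was searched for, and the other arrangement, TTCNNGAA, was not. The pair GAANNTTC occurred in 1 of the 9 member windows, against 5.78% of all 35116 windows. This was the window of NID2, 126 bases before the start and within an annotated exon. The longer element of 3 units, in which the pair is followed after 2 bases by a further GAA, occurred in none of the 9 and in 0.441% of all windows. The TEAD letters GGAATG stood in 3 member windows (FBN1, THBS1 and, as CATTCC, SPARC) against 11.9% of all. All 250 bases of the SPARC window lie within annotated exon. The cAMP response element TGACGTCA was present in FN1 alone among the members, 183 bases before its start, and in 1.65% of all windows. An AP-1 site (TGANTCA) was found in 1 of the 2 windows of MFAP2, where it occurred 2 times, and in 6.57% of all windows. The TATA letters TATAAA were in no member window and in 10.7% of all. Each match describes letters only.

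HSF1 itself was checked first. It had 3762 and 3515 counts in the WT libraries and 24664 and 19839 in the HSF1-pLVX libraries, which gave a log2 fold change of 2.35 (standard error, SE, 0.148) and an adjusted p of 5.77e-55 in edgeR's quasi-likelihood test. The library totals were between 18688109 and 24184285 counts, so most members were counted well above the sampling limit, and NID1, MFAP2 and DCN were not. Of 9 epithelial markers, all passed the filter on low counts, and 6 were called lower and 2 higher. Their summed level lay between 16450 and 16600 CPM in WT and between 7733 and 8198 CPM in HSF1-pLVX libraries. The 6 lower were KRT14, KRT17, KRT8, KRT18, CDH1 and EPCAM. The 2 higher were KRT5 (means of 2113 CPM in WT and 4592 CPM in HSF1-pLVX cells) and TP63 (9.688 and 107.9 CPM). CPM stands for counts after TMM scaling to 1 shared library size. Of 10 fibroblast markers, 7 had at most 10 counts in every library, and the summed level was 208.8 and 243.2 CPM in WT and 64.37 and 51.04 CPM in HSF1-pLVX libraries, most of it from FAP. Of 5 endothelial markers, 3 had at most 10 counts in every library, and the sum was 3.143 and 2.099 CPM in WT and 13.42 and 14.65 CPM in HSF1-pLVX libraries, most of the latter from KDR alone (12.31 and 12.89 CPM). The immune sum was 25.89 and 21.91 CPM in WT and 4.979 and 3.876 CPM in HSF1-pLVX libraries, with 4 of 5 markers at no more than 10 counts everywhere and PTPRC at 0, so that nearly all of it came from CSF1R (25.73 and 21.31 CPM in WT, 4.939 and 3.775 CPM in HSF1-pLVX libraries). These sums differed between the variants along with the members' levels, and their part in the results was not tested.

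Most of the matrix group was lower in HSF1-pLVX cells. Of the 10 members, NID2, FBN1, MFAP5, FN1, TNC, THBS1 and SPARC were called lower and DCN was called higher, at an adjusted p of 0.05 in edgeR's quasi-likelihood test. MFAP2 was tested and not called, and NID1 had too few counts to be tested. Over all 15830 tested genes, 32.7% were called lower and 32.5% higher, so 7 of 9 tested members stood beside a background of about 1 gene in 3. The members were not chosen independently of these data. The study had already named NID2 and MFAP5 as examples among the genes it found most affected. 6 members were at least 2-fold lower, where 14.0% of all tested genes were, and DCN was at least 2-fold higher, where 14.9% were. The median log2 fold change of the 9 tested members was -2.39, and that of all tested genes was 0.02. In RNA from whole cultures, fewer cells making a transcript and less transcript per cell cannot be told apart.

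**Figure D1:**
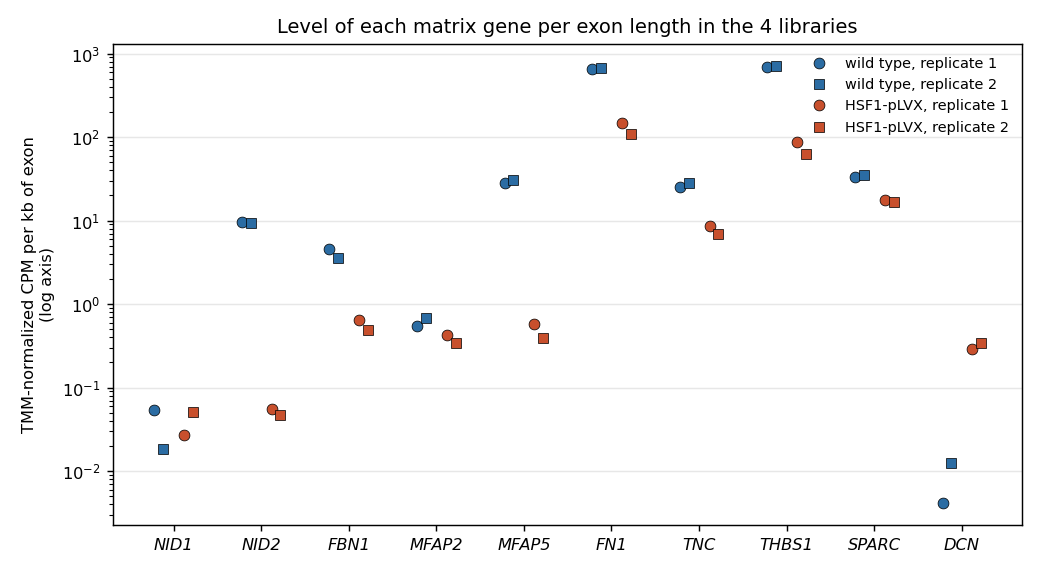
TMM-normalized CPM per kilobase of counted exon (log axis) of the 10 members, 1 point per library, blue for WT and orange for HSF1-pLVX, circles for replicate 1 and squares for replicate 2. The WT points lie above the HSF1-pLVX points for NID2, FBN1, MFAP2, MFAP5, FN1, TNC, THBS1 and SPARC, below them for DCN, and overlap with them for NID1.

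The nidogens link laminin to type IV collagen in basement membranes. NID2 (ENSG00000087303.17, chromosome 14, 52004803 to 52069228 on hg38, minus strand) had 61.37 and 60.01 CPM in WT cells, from 1152 and 1115 counts. In HSF1-pLVX cells it had 0.3585 and 0.302 CPM, from 9 and 6 counts. The transcript was therefore plain in both WT libraries and close to the detection limit in both HSF1-pLVX libraries. Its log2 fold change was -7.48 (SE 0.203, adjusted p = 5.73e-283 in edgeR's test), the 24th lowest of all 15830 tested genes. The adjusted p was 3.98e-13 in edgeR's test without the replicate block. Scaled to the TMM-normalized library sizes, the ratio of the summed counts, WT over HSF1-pLVX, was 182, with an exact 95% interval of 110 to 326 that covers counting error only. At its end, 1915 of the 6392 exon bases of NID2 (30.0%) are shared with RTRAF on the opposite strand. The use of strand in the counting is not stated, so reads there may belong to either gene. RTRAF itself had 92.96 and 95.32 CPM in WT and 91.81 and 95.89 CPM in HSF1-pLVX cells, with a log2 fold change of -0.005.

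NID1, the other nidogen (ENSG00000116962.14, chromosome 1, 235975830 to 236065162, minus strand), was barely detected. It had 6 and 2 counts in WT and 4 and 6 counts in HSF1-pLVX cells, so the groups overlapped. The ratio of the summed counts, HSF1-pLVX over WT and scaled in the same way, was 1.04 with an exact 95% interval of 0.369 to 3.03, and a change inside these bounds was not detectable at this depth.

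Microfibrils are built from fibrillins and carry the glycoproteins MFAP2 and MFAP5. FBN1 (fibrillin-1, ENSG00000166147.13, chromosome 15, 48408306 to 48645849, minus strand) had 74.05 and 56.78 CPM in WT and 10.28 and 7.903 CPM in HSF1-pLVX cells. Both HSF1-pLVX libraries were below both WT libraries by a margin far wider than the spread within either pair. The log2 fold change was -2.85 (SE 0.122, adjusted p = 4.54e-116 in edgeR's test), a level 7.19 times lower. MFAP5 (ENSG00000197614.10, chromosome 12, 8637346 to 8662888, minus strand) fell further, from 109.5 and 117.8 CPM in WT to 2.27 and 1.51 CPM in HSF1-pLVX cells. Its counts were 2056 and 2189 against 57 and 30, so the gene remained detectable in both HSF1-pLVX libraries. The log2 fold change was -5.88 (SE 0.147), the 56th lowest of all tested genes. Its adjusted p was 8.59e-13 in edgeR's test without the replicate block, and with the block it was too small to be represented.

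MFAP2 (ENSG00000117122.13, chromosome 1, 16974502 to 16980835, minus strand) was a minor transcript in both variants. It had 1.598 and 1.991 CPM in WT and 1.235 and 1.007 CPM in HSF1-pLVX cells, from 20 to 37 counts per library. The libraries did not overlap, but the log2 fold change of -0.66 (SE 0.346) did not pass the threshold (adjusted p = 0.0818 in edgeR's test, and between 0.0583 and 0.426 over the alternatives).

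FN1 (fibronectin, ENSG00000115414.18, chromosome 2, 215360440 to 215436172, minus strand) was the most abundant member by counts. It had 11430 and 11490 CPM in WT cells, 1.10 and 1.142% of all counts in those libraries. In HSF1-pLVX cells it had 2559 and 1866 CPM, or 0.2656 and 0.1867% of all counts. FN1 thus stayed an abundant transcript in the HSF1-pLVX libraries at a fraction of its WT level, and these libraries differed more from each other than the WT pair did. The log2 fold change was -2.39 (SE 0.261, adjusted p = 3.90e-19 in edgeR's test), a level 5.25 times lower. In the order of level per exon length, FN1 ranked 42nd and 43rd among all genes in the WT libraries and 218th and 333rd in the HSF1-pLVX libraries.

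THBS1 (thrombospondin-1, an adhesion-modulating glycoprotein that can activate latent TGF-beta) lies on chromosome 15, 39581079 to 39599466, plus strand (ENSG00000137801.10). It had 6266 and 6530 CPM in WT and 791.8 and 569.4 CPM in HSF1-pLVX cells. The HSF1-pLVX libraries were far below both WT libraries, and the log2 fold change was -3.25 (SE 0.231, adjusted p = 1.63e-43 in edgeR's test), a level 9.52 times lower. Its rank per exon length was 41st and 38th in WT and 410th and 596th in HSF1-pLVX libraries. TNC (tenascin-C, ENSG00000041982.15, chromosome 9, 115019578 to 115118257, minus strand), which weakens cell adhesion to fibronectin, had 243.6 and 273.2 CPM in WT and 82.09 and 66.39 CPM in HSF1-pLVX cells. The 2 groups were well separated, and the log2 fold change was -1.80 (SE 0.115, adjusted p = 1.91e-53 in edgeR's test), a level 3.49 times lower.

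SPARC (osteonectin, a collagen-binding matricellular protein, ENSG00000113140.10, chromosome 5, 151661096 to 151687165, minus strand) fell least among the called members. It had 159.9 and 168.4 CPM in WT and 86.28 and 80.24 CPM in HSF1-pLVX cells. The groups did not overlap, and each pair was tight. The log2 fold change was -0.98 (SE 0.108, adjusted p = 9.84e-19 in edgeR's test), a level 1.97 times lower and thus just under the 2-fold limit that the 6 others passed. Leaving out any 1 of the 4 libraries gave values between -1.03 and -0.92 for SPARC.

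DCN (decorin, ENSG00000011465.16, chromosome 12, 91140484 to 91183123, minus strand) was the only member called higher in HSF1-pLVX cells. It had 1 and 3 counts in WT and 94 and 87 counts in HSF1-pLVX cells, or 0.05327 and 0.1615 CPM against 3.744 and 4.379 CPM. WT cells were thus at the limit of detection, whereas a low level was counted in both HSF1-pLVX libraries. The log2 fold change was 5.17 (SE 0.472, adjusted p = 8.59e-27 in edgeR's test), the 39th highest of all tested genes. As the WT level rests on 4 counts, the fitted value is imprecise. It was 4.61 without WT replicate 1 and 6.08 without WT replicate 2. The ratio of the summed counts, HSF1-pLVX over WT and again scaled for library size, was 37.6 with an exact 95% interval of 14.4 to 139 for counting error.

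**Figure D2:**
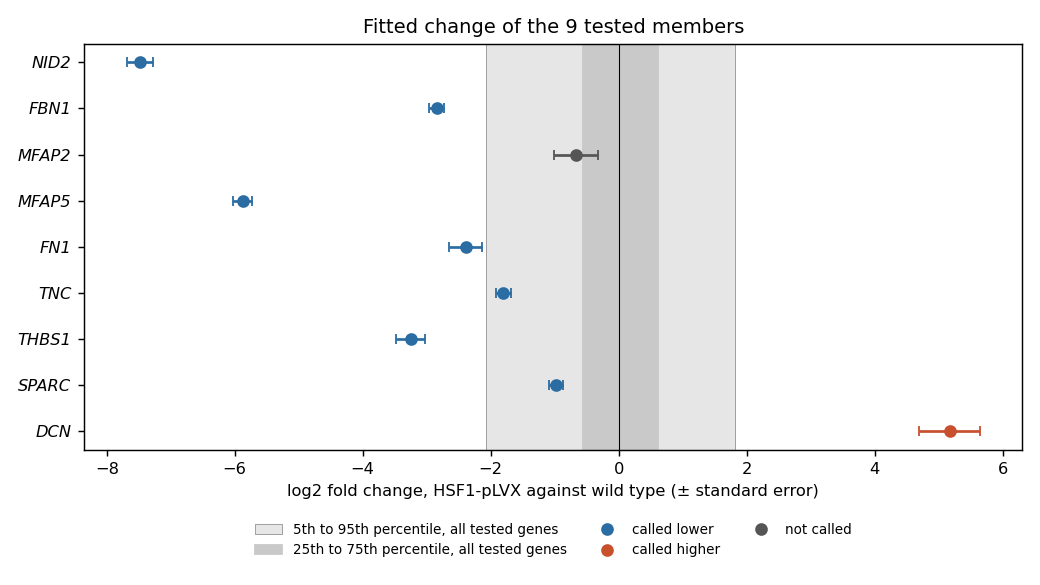
Fitted log2 fold change of HSF1-pLVX against WT for the 9 tested members, with bars of 1 SE, over grey bands that hold the middle 50% and the middle 90% of all 15830 tested genes. NID2, MFAP5, THBS1, FBN1 and FN1 lie below the 5th percentile of -2.08. TNC, SPARC and MFAP2 lie between it and the 25th percentile of -0.55, and DCN above the 95th percentile of 1.82.

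The ratio rule of the study was then applied to the deposited log2-like values. It asks for a ratio above 2 or below 0.5 in both pairs of replicates. NID2, FBN1, MFAP5, FN1, TNC and THBS1 were lower by this rule, as were 6.42% of the 22321 deposited rows, and DCN was higher, as were 5.00% of the rows. SPARC had ratios of 0.525 and 0.476 and missed the rule in the first pair. MFAP2 had ratios of 0.823 and 0.63, and those of NID1 were 0.779 and 1.37, on either side of 1.

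The make-up of the group was described next, with levels given as CPM per kilobase of exon. THBS1 (698.6 on average) and FN1 (661.9) were by far the highest of the 10 genes in WT cells, and THBS1 was above FN1 in both WT libraries. In HSF1-pLVX cells the order of these genes was turned around in both libraries, with 127.8 for FN1 and 74.32 for THBS1. SPARC followed them in all 4 libraries, with means of 33.98 in WT and 17.23 in HSF1-pLVX cells. MFAP5 was next in WT cells, at 29.33, just above TNC at 26.81, and in HSF1-pLVX cells it was at 0.4877, below TNC at 7.705 and FBN1 at 0.5661. NID2 went from 9.495 to 0.05167, which placed it beside NID1 (0.03643 in WT and 0.03934 in HSF1-pLVX cells). DCN was the lowest of the 10 in WT cells, at 0.008357, and was above both nidogens in HSF1-pLVX cells, at 0.3162.

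Because FN1 and THBS1 were so abundant, they set the total. The summed level of the 10 members was 18350 and 18700 CPM in WT and 3537 and 2597 CPM in HSF1-pLVX libraries, and FN1 and THBS1 together made up between 93.76 and 96.46% of it in every library. The share of FN1 alone was 62.3 and 61.5% in WT and 72.3 and 71.8% in HSF1-pLVX libraries. The other 8 members summed to 650.3 and 678.5 CPM in WT and to 186.4 and 162.0 CPM in HSF1-pLVX libraries.

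Some members were set beside a close relative, as ratios of levels per exon length within a library, which need no scaling between libraries. The pairs with FBN2 and THBS3 were chosen after their values had been seen, and the differences between the genes of a pair were not tested. NID2 was 176 and 511 times the level of NID1 in WT libraries and 2.06 and 0.917 times in HSF1-pLVX libraries, where both rest on fewer than 10 counts. MFAP5 exceeded MFAP2 by a factor of 51.5 and 44.5 in WT libraries and of 1.38 or less in HSF1-pLVX libraries. FBN2, the second fibrillin, was called higher (129.5 and 104.7 CPM in WT, 177.5 and 158.3 CPM in HSF1-pLVX cells, log2 fold change 0.52, SE 0.109). It was already 2.13 and 2.24 times the level of FBN1 in WT libraries, and 21.0 and 24.4 times in HSF1-pLVX libraries. THBS3, a thrombospondin of the pentameric class, was also called higher (17.63 and 20.67 CPM in WT, 35.81 and 40.37 CPM in HSF1-pLVX cells, log2 fold change 0.99, SE 0.117). Its ratio to THBS1 was 0.00557 and 0.00627 in WT and 0.0896 and 0.14 in HSF1-pLVX libraries, so THBS1 remained the more abundant of the pair.

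**Figure D3:**
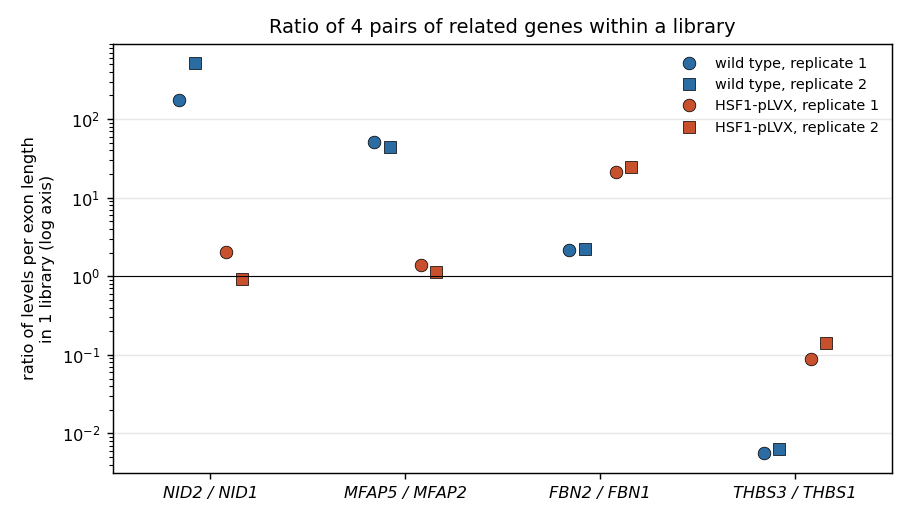
Ratio of the levels per exon length (log axis) of 4 pairs of related genes, 1 point per library, blue for WT and orange for HSF1-pLVX. NID2 over NID1 and MFAP5 over MFAP2 are near 1 in the HSF1-pLVX libraries, while FBN2 over FBN1 and THBS3 over THBS1 are higher there than in both WT libraries.

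To place the members among other genes of the same structures, 5 wider lists that exclude them were examined. Their counts stand beside 32.5% of all tested genes called higher and 32.7% called lower. At least 2-fold changes were called higher for 14.9% of all tested genes and lower for 14.0%. A list count near these shares is not a result about that list. The median of the matricellular genes was the nearest to that of the members. Of 25 listed, 10 were tested, 8 were called lower and 2 higher, and the median log2 fold change was -1.96. CCN1, a secreted integrin ligand, had 426.7 and 500.1 CPM in WT and 54.21 and 56.58 CPM in HSF1-pLVX cells, a log2 fold change of -3.06 (SE 0.13). SPOCK1 (-2.46, SE 0.117) and MATN2 (-2.37, SE 0.184) were also at least 2-fold lower on the log2 scale. TGFBI, an adhesion protein induced by TGF-beta, was higher, with 1187 and 1141 CPM in WT and 3490 and 3695 CPM in HSF1-pLVX cells, a log2 fold change of 1.63 (SE 0.197).

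The partners of NID2 in the basement membrane were divided. Of 12 genes listed, 11 were tested, 6 were called higher and 4 lower, with a median log2 fold change of 0.33. LAMA1, a laminin alpha chain, rose from 7.085 and 6.512 to 24.38 and 27.63 CPM (log2 fold change 1.93, SE 0.143), and LAMA4 rose by 1.16 (SE 0.147). LAMA2 went the other way, from 6.233 and 5.705 to 0.7966 and 0.4027 CPM (-3.28, SE 0.299). NTN4, a netrin that binds laminin, was lower by a log2 fold change of -1.87 (SE 0.12), and PXDN, the peroxidase that crosslinks type IV collagen, by one of -1.26 (SE 0.128).

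Genes of microfibrils and elastic fibres other than the members went both ways. Of 16 listed, 10 were tested, 4 were called higher and 5 lower, and the median log2 fold change was -0.24. EFEMP1 (fibulin-3) had 171.9 and 159.6 CPM in WT and 68.11 and 56.02 CPM in HSF1-pLVX cells, a log2 fold change of -1.42 (SE 0.108), and LTBP2 one of -1.18 (SE 0.115). LTBP4, which holds latent TGF-beta on microfibrils, rose from 23.07 and 24.38 to 60.90 and 77.77 CPM, a log2 fold change of 1.54 (SE 0.109).

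The list of 26 other genes called proteoglycans here is a wide one. It includes link proteins such as HAPLN3 and leucine-rich repeat proteins such as ECM2, whereas HSPG2, AGRN and SPOCK1 were placed in other lists. Of the 26, 15 had at most 3 counts in every library and 9 were tested. Of these 9, 5 were called higher and 2 lower (median log2 fold change 0.43). BGN (biglycan), the closest relative of DCN, was also higher, with 6 and 5 counts in WT and 104 and 76 counts in HSF1-pLVX cells, a log2 fold change of 3.73 (SE 0.389). ECM2 had 8 and 7 counts in WT and 64 and 52 in HSF1-pLVX cells (2.67, SE 0.399). DCN, BGN and ECM2 were all below 5 CPM in every library. VCAN, a large proteoglycan, was lower, from 10.81 and 13.62 to 3.107 and 3.02 CPM (-1.98, SE 0.189).

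Of 17 receptors for these proteins, 14 were tested, 3 were called higher and 7 lower, and the median log2 fold change was -0.27. Integrin subunits were found on both sides, and the beta subunits ITGB5, ITGB8 and ITGB6 were at least 2-fold lower. ITGB5 had 273.1 and 251.5 CPM in WT and 72.65 and 70.07 CPM in HSF1-pLVX cells (-1.88, SE 0.115), ITGB8 had a log2 fold change of -1.75 (SE 0.114) and ITGB6 one of -1.54 (SE 0.128). ITGA5 and ITGB3, named after their values were seen, had other values. ITGA5, the alpha chain of the main fibronectin receptor, was called higher (234.1 and 227.8 CPM in WT, 357.9 and 372.1 CPM in HSF1-pLVX cells, log2 fold change 0.66, SE 0.123, adjusted p = 2.43e-07 in edgeR's test). ITGB3, with 7 and 12 counts in WT and 20 and 16 in HSF1-pLVX cells, was not called (log2 fold change 0.67, SE 0.471, adjusted p = 0.204 in edgeR's test). No receptor was called and at least 2-fold higher, where 14.9% of all tested genes were. The highest, SDC1, had a log2 fold change of 0.81 (SE 0.132). In edgeR's test, the adjusted p was 3.67e-09 for SDC1 and 1.12e-10 or less for the 18 list genes named by the rule. Every list is described by its counts and median and was not tested as a set.

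**Figure D4:**
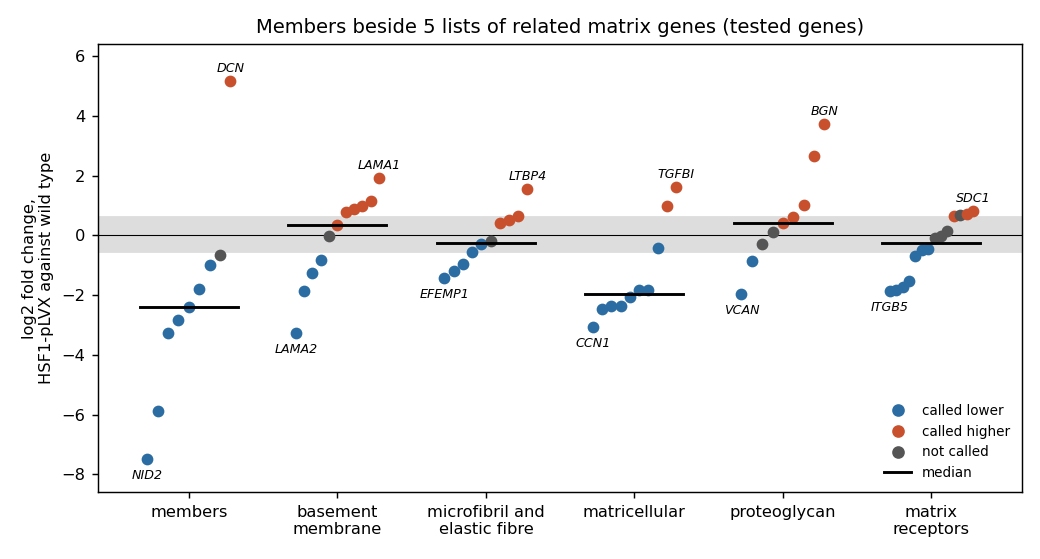
Log2 fold change of each tested gene among the members and in the 5 wider lists, with the median as a black line and the middle 50% of all tested genes as a grey band, blue and orange for genes called lower and higher and grey for genes not called. The members (median -2.39) and the matricellular genes (-1.96) lie mostly below the band, whereas the other lists spread to both sides of it.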

How the data were processed

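RNA-seq was performed on MCF10A cells, with 2 WT and 2 HSF1-pLVX libraries, grouped by genotype label and replicate number. The authors aligned 76-base paired-end reads to hg38 (HISAT2 2.0.5, SAMtools 1.13) and deposited raw counts per gene (featureCounts 1.6.5, GENCODE release 26). The settings for strand, overlapping genes and multi-mapping reads are not given in the sources used here, nor whether replicates shared a culture. The authors also deposited log2-like values normalized with DESeq2 1.32.0 for 22321 rows, with a floor of 3.118, used here for the ratio rule and as an alternative. Members and lists were chosen with earlier results of these data known.

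R 4.3.3 and edgeR 4.0.16 were used for the counts, with TMM scaling and the default filterByExpr settings. The quasi-likelihood test included the replicate number as a block, because ratios in the study are taken within a number, and p-values of the 15830 tested genes were adjusted by the Benjamini-Hochberg method. Calls were made at an adjusted p of 0.05. Each SE was derived from the log2 fold change and its F statistic. With the block the prior degrees of freedom were infinite, so the very small p-values rest on a spread shared between genes, and without it they were 11.9. For 1 gene alone, the smallest p of an exact permutation test with 2 libraries per group is 0.33. Deviations of equal-numbered libraries showed no positive correlation (0.000143 over all tested genes and -0.113 above 8 CPM). With 2 libraries per variant, this cannot show whether equal numbers mark a shared culture. Replicates differed by more than sampling noise (chi-square per degree of freedom 4.39 for WT and 5.30 for HSF1-pLVX), with a biological coefficient of variation of 0.0787. P-values measure the spread between these libraries only. Of each wider list, up to 3 genes per direction with the largest log2 fold change of at least 1, and at least 50 counts in each library of the higher group, were named, with the highest and lowest. Alternatives covered normalization (DESeq2 1.42.0 size factors, or library size only), no filter on low counts, DESeq2's Wald test and no block. They also covered an adjusted p of 0.01, the deposited values, and each library left out. The fits with a library left out had no replicate block. A crossed pairing was added after seeing the data. Symbols are from GENCODE release 44, and promoter windows are from RefSeq.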

Additional observations from a re-analysis of the deposited data

How the results depend on the processing

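The 9 tested members kept their direction and call in all 99 values from alternatives with a test. On the deposited log2-like values, where no test was run, all 9 kept their direction. 3 differed from the fitted value by more than 1 SD of the log2 ratios of the 2 replicate pairs (NID2 -5.96, FBN1 -2.76, DCN 2.81). An SD of 2 values is imprecise. FBN1 was marked in this way although its fitted value was -2.85, and MFAP5, at -5.46 against a fitted -5.88, was not. The cause of these differences was not tested. By the ratio rule on these values SPARC was not counted as lower. With 1 library left out, 7 members stayed called lower, and 6 or 7 were at least 2-fold lower, since SPARC passed that limit without WT replicate 1 and without HSF1-pLVX replicate 1. Without the replicate block, 7 members were called lower and 1 higher, with 5175 of all tested genes higher and 5253 lower. The adjusted p of the called members in edgeR's test without the block lay between 3.98e-13 (NID2) and 2.17e-07 (SPARC). With the crossed pairing, 5429 genes were higher and 5487 lower.

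With DESeq2's Wald test, 3318 genes were called higher and 3737 lower. Of the lists, 3 elastic fibre genes were then higher and 3 lower, 3 proteoglycans higher and 1 lower, 7 matricellular genes lower and 6 receptors lower, and the other list counts were as before. The cause of these changes was not tested either. With 1 library left out, 1 or 2 proteoglycans were called lower (1 without WT replicate 1 or HSF1-pLVX replicate 2), and 4 to 7 receptors (4 without HSF1-pLVX replicate 2). The 253 values of the 23 list genes named, FBN2, THBS3, SDC1, ITGA5 and ITGB3 included, kept their direction and side of the threshold. Depth limits NID1, MFAP2 and the WT level of DCN.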

Other observations

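The 2 HSF1-pLVX libraries did not differ from WT to the same extent. All 7 members called lower were lower in HSF1-pLVX replicate 2 than in replicate 1, with ratios between 0.665 for MFAP5 and 0.93 for SPARC and a median of 0.769. In the WT pair, 2 of the 7 (NID2 and FBN1) were lower in replicate 2, with ratios between 0.767 and 1.12. DCN, the member called higher, had 1.17 times the level of replicate 1 in HSF1-pLVX replicate 2. Among all tested genes, 51.6% were lower in HSF1-pLVX replicate 2, with a median ratio of 0.994, and among the 2221 genes at least 2-fold lower than in WT, 68.1% were, with a median ratio of 0.907. The HSF1 transcript itself was at a ratio of 1.02. This pattern was noticed in the data and was not tested.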
